A study of Mus musculus with 6 samples.

Results

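Rab38 and 7 further genes that move and release secretory lysosomes were followed across 6 arrays of mouse bone marrow macrophages. The 8 genes were chosen by name, with earlier results of these data known. They were the GTPases Rab38, Rab32, Rab27a, Rab3d and Rab7, the Rab7 partner Plekhm1, the sorting nexin Snx10 and the calcium sensor Syt7. They are 8 of the 18193 genes that had at least 1 probe set annotated with a single gene symbol. Their 21 probe sets were all examined, and the one with the highest mean over the 6 arrays represented each gene.

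RNA was measured on Affymetrix Mouse Genome 430 2.0 arrays. All cells were c57BL/6 macrophages of TNFR1-/-R2-/- mice, which lack both TNF receptors, and all had been infected with a retrovirus for a chimeric receptor and kept under puromycin (2 ug/ml) for 3 days. The receptor carried the outer part of mouse TNFR1 on the membrane and inner parts of mouse RANK, the receptor of the osteoclast factor RANK ligand. The 3 wild-type arrays came from cells with an unaltered RANK part, and the 3 mutant arrays from cells whose receptor had inactivating mutations in the IVVY motif. Both groups were cultured with M-CSF at 44 ng/ml and TNFα at 10 ng/ml for 24 hours. Each array held the pooled RNA of 6 dishes, and 3 independent assays each gave 1 mutant and 1 wild-type array. The labels state neither the age of the mice nor how much receptor each culture made. The series asks which macrophage genes depend on the IVVY motif, so the comparison was mutant against wild type, over all arrays and within each assay.

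Osteoclasts resorb bone by sending lysosomes to the membrane that faces the bone, where fusion releases acid and enzymes such as cathepsin K. Rab GTPases mark the vesicles and recruit the effectors that move, tether and fuse them. Rab7 and Plekhm1 act at the late endosome and lysosome, Rab27a, Rab3d and Syt7 at secretion, and Rab32 and Rab38, a closely related pair, at lysosome-related organelles such as the melanosome. Snx10 binds phosphoinositides on endosomes, and loss of Snx10 or Plekhm1 function causes osteopetrosis, a disease of dense bone from failed resorption.

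The 6 array medians ranged from 8.86 to 9.38 in intensity, and the small number of arrays limits the precision of every value. A probe set was tested if it lay above the median of its own array on at least 3 arrays, which held for 22497 probe sets and 10372 genes. It held for 13 of the 21 member probe sets and for 7 of the 8 members, Syt7 being the exception. Of the sum of squares over all tested probe sets, on the log2(intensity + 16) scale, 81.9% lay between assays and 7.69% between the groups. All 11 macrophage markers were above the filter, with summed intensities of 214783 to 239710.0 on the mutant and 217817 to 229451 on the wild-type arrays. Of 9 stromal markers 5 were above it, and the sum of the 9 was 3375 and 4689 on the wild-type and mutant arrays of assay 3 and at most 164 on the other 4 arrays. Above the filter were also 1 of 12 granulocyte and mast cell markers and 1 of 4 megakaryocyte and platelet markers. Of the lymphocyte markers 1 of 6 was above it, and of the dendritic cell markers 0 of 6.

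Among the members, Rab38 differed most between the groups, Snx10 was lower in the mutant of every assay by a smaller amount, and Rab32, Rab7 and Plekhm1 had no common direction over the assays. By limma, with Benjamini-Hochberg adjustment over all 22497 probe sets, 0 members passed at 0.05, where 0% of all probe sets passed. At an unadjusted p under 0.05 limma gave 1 member, Rab38, lower in the mutant, and 0 higher, against 0.935% of genes lower and 0.202% higher. With the assay number as a block limma again passed 0 members, and 2 had an unadjusted p under 0.05, Rab38 and Snx10, both lower, against 3.07% of genes lower and 2.82% higher. The mutant mean was below the wild-type mean for 4 of the 7 members tested and above it for 3, where it was below for 46.8% of genes. In every same-numbered pair 3 of 7 were lower (Rab38, Rab3d and Snx10) and 0 higher, where 12% of genes were lower in every pair and 14.5% higher. Only Rab38 had groups that did not overlap, being lower in the mutant; of all genes 1.96% were lower and 1.36% higher without overlap.

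**Figure D1:**
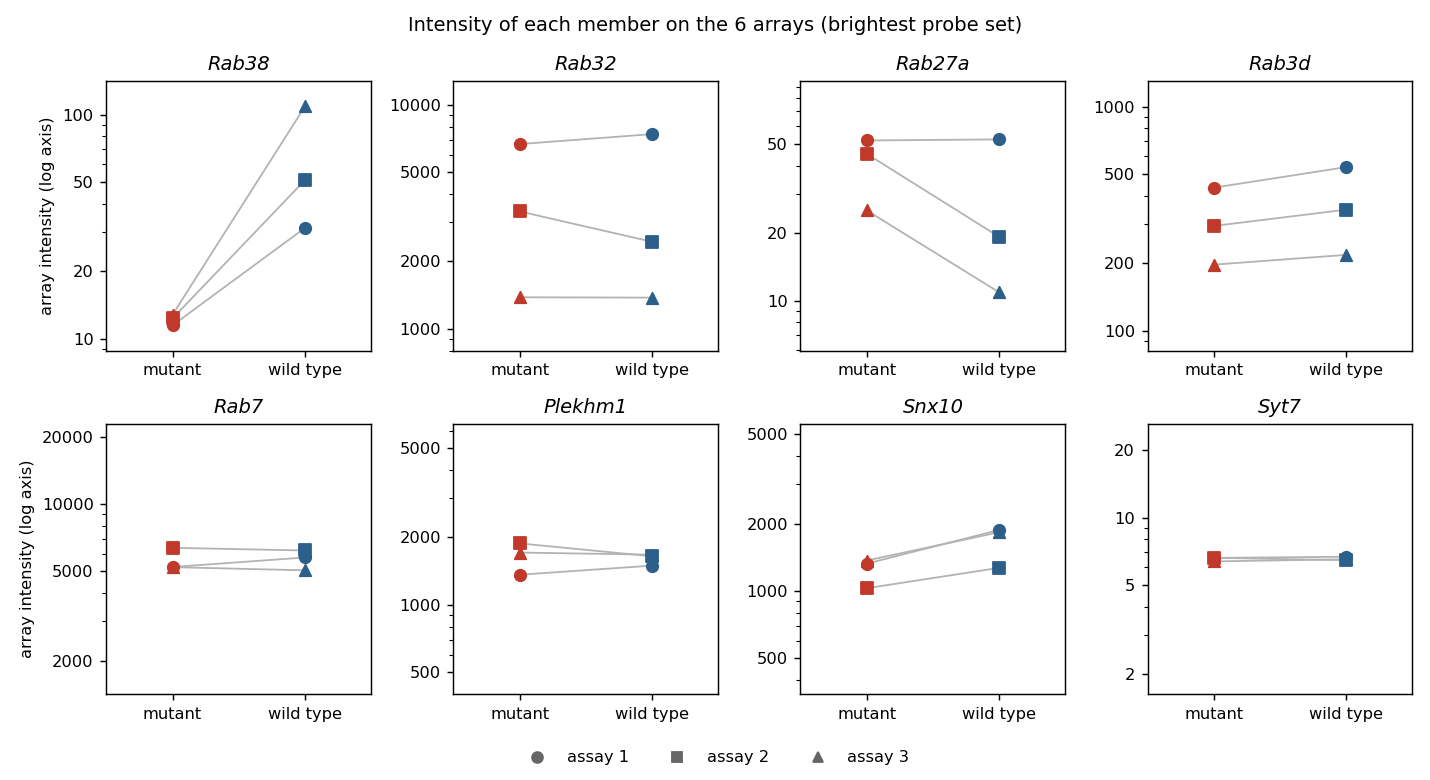
Intensity (log axis) of the brightest probe set of each of the 8 members on the 3 mutant and 3 wild-type arrays; grey lines join arrays of the same assay, and every panel spans the same ratio. The Rab38 mutant values lie together at 11.5 to 12.8 while its wild-type values spread from 31.2 to 109, and Rab32 is spread by assay in both groups alike.

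Rab38 is a GTPase that directs enzymes to melanosomes and other lysosome-related organelles. Its brightest probe set read 11.5, 12.3 and 12.8 on mutant arrays 1, 2 and 3 and 31.2, 51.0 and 109 on the wild-type arrays. The mutant values lay close together and close to the array medians, and all wild-type values were higher. The mutant mean was 12.2 ± 0.669 and the wild-type mean 63.7 ± 40.3 (SD, n = 3 each). The log2 difference, mutant minus wild type, was -1.38 ± 0.36 SE (95% interval -2.29 to -0.47), with an unadjusted p of 0.0110 and an adjusted p of 0.99998 by limma. By its p the probe set ranked 41 among the 22497, and by its difference 45 from the lowest. Since the members were chosen with earlier results of these data known, this p and these ranks are not independent support for Rab38.

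Within assays the wild-type intensity of Rab38 was 2.72, 4.15 and 8.52 times the mutant one in assays 1, 2 and 3. On the log2(intensity + 16) scale the pair differences were -0.78, -1.24 and -2.12. Mutant arrays differed little, so the spread of these differences came with the wild-type values, which were highest on array 3. Since the mutant values lie near the floor, the size of the difference depends on the pseudocount of 16. It was -2.20 with none, -2.11 with 1 and -0.70 with 64, and -0.86 when both Rab38 probe sets were averaged.

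The other Rab38 probe set lay below the filter and was not tested. Its type may also bind related transcripts. It read 5.92, 5.85 and 5.83 on the mutant arrays and 6.18, 6.54 and 25.6 on the wild-type arrays. Every mutant value was again lower than every wild-type value, but only wild-type array 3 stood above its array median.

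Most markers of osteoclasts moved with Rab38. Of the 10 osteoclast markers, 7 were lower on every mutant array than on any wild-type array and 8 were lower in every pair. Of all genes tested, 1.96% were lower without overlap and 12% were lower in every pair. The summed intensity of the 10 markers was 1896 to 2789 on the mutant and 9406 to 27737 on the wild-type arrays. It was highest on wild-type array 3, as for Rab38. The markers Oscar and Itgb3 lay below the filter and were not tested. Itgb3 is counted among the 7, though it read 3.77 to 3.86 on the mutant and 3.88, 3.95 and 10.6 on the wild-type arrays. Calcr and Ocstamp, also among the 7, lay below the array medians on all mutant arrays. They passed the filter only through the wild-type arrays, so their lower mutant values are not a separate result. Nfatc1 was level, with means of 862 on the mutant and 849 on the wild-type arrays and a log2 difference of 0.02. In RNA from whole cultures, fewer cells of a type and less RNA per cell cannot be told apart, and the part of osteoclast number in the Rab38 difference was not tested. Melanocytes also use Rab38. Of their 7 markers 5 exceeded the array median on no array, and their sums were 44.8 to 46.1 on the mutant and 43.8 to 46.8 on the wild-type arrays. The stromal sum was not ordered by group, ranging from 69.1 to 4689 on the mutant and 66.5 to 3375 on the wild-type arrays. Without both arrays of assay 3, where that sum was high, the log2 difference of Rab38 was -1.01. This also leaves out the highest wild-type value of Rab38. The part of stromal cells or melanocytes in the Rab38 difference was not tested.

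The genes whose pattern was most like that of Rab38 were found by Pearson's r of log2(intensity + 16) over the 6 arrays, among 2927 genes that ranged over at least 1 log2 unit. They were the matrix proteoglycan Vcan (r = 0.980), the fusion protein gene Dcstamp (0.976), the anchoring protein gene Akap6 (0.974), the growth factor receptor gene Met (0.968) and the signalling adaptor Traf1 (0.965). Such r values describe 6 points that share 2 groups and 3 assays and carry no test. Vcan read 5.34, 5.35 and 8.81 on the mutant arrays and 22.9, 34.6 and 51.4 on the wild-type arrays. Dcstamp read 12.7, 13.2 and 15.5 against 71.8, 67.1 and 200.4. Traf1 read 47.7, 23.7 and 61.0 against 215, 227 and 815. All 5 had lower values on every mutant array than on any wild-type array, with the highest value on wild-type array 3. Choosing the genes most like Rab38 selects for this pattern, so it is not a separate result. Vcan and Akap6 lay below the array medians on all mutant arrays and passed the filter only through the wild-type arrays. Among the members, r to Rab38 was 0.61 for Snx10, 0.08 for Plekhm1, -0.19 for Rab3d and for Rab7, -0.41 for Rab32 and -0.77 for Rab27a.

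**Figure D2:**
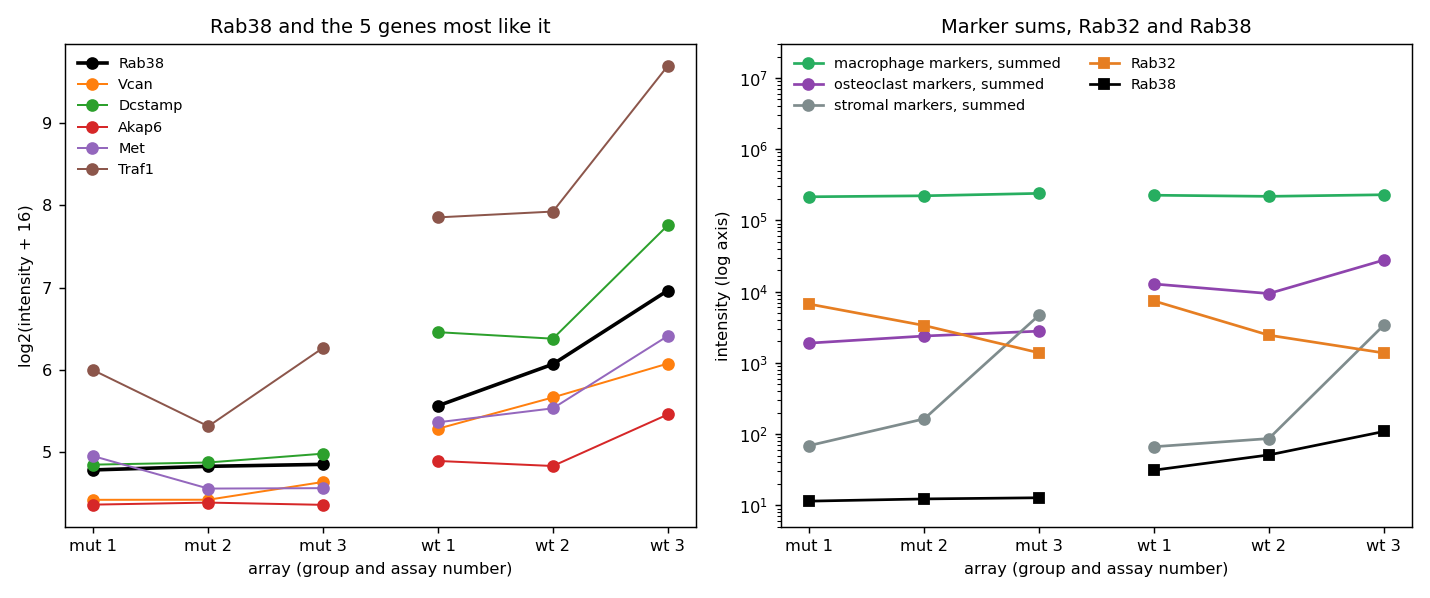
Left, log2(intensity + 16) of Rab38 and the 5 genes most like it on each array; right, on a log axis, the intensities of Rab38 and Rab32 beside the summed intensities of macrophage, osteoclast and stromal markers. Lines only join arrays of a group and imply no order. Rab38 and the osteoclast sum (1896 to 2789 against 9406 to 27737) separate the groups, the stromal sum separates assay 3, and the macrophage sum is nearly level.

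Rab32, the closest relative of Rab38 in the family, acts at melanosomes, lysosomes and mitochondria. Its 1 probe set read 6686, 3346 and 1384 on mutant arrays 1, 2 and 3 and 7406, 2448 and 1379 on the wild-type arrays. Levels followed the assay in both groups, with 98.0% of its sum of squares by assay and 0.280% by group. The highest array read 5.37 times the lowest. Between the groups the log2 difference was 0.10 ± 0.84 SE (95% interval -2.00 to 2.20). As for the other members, this interval comes from the fit without the assay term and also holds the differences between assays. With the assay number as a block the SE by limma was 0.15. The pair differences were -0.15, 0.45 and 0.01, beside -0.78, -1.24 and -2.12 for Rab38. The difference between these relatives was not tested. Stromal markers were highest in assay 3, where Rab32 was lowest, and the platelet factor gene Pf4 read 5197 and 4460 there against 9592 to 15254 elsewhere. Pf4 was the only 1 of 4 megakaryocyte and platelet markers above the filter. Itga2b and Gp9 read 4.91 to 5.43 on all arrays, and Ppbp was highest, at 26.5, on wild-type array 3. The part of stromal cells or platelets in the assay pattern of Rab32 was not tested.

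Rab27a and Rab3d act late in secretion. Rab27a docks lysosome-related granules at the plasma membrane, as in cytotoxic T cells. Its brightest probe set read 51.9, 45.2 and 25.3 on the mutant and 52.5, 19.3 and 10.9 on the wild-type arrays. In assay 1 the pair was level, and in assays 2 and 3 the mutant was 2.35 and 2.32 times the wild type. The groups overlapped, and the log2 difference was 0.47 ± 0.40 SE (95% interval -0.54 to 1.48; limma, adjusted p = 0.99998). With the assay number as a block the SE by limma was 0.19, with an unadjusted p of 0.0692 and an adjusted p of 0.859. The 3 other Rab27a probe sets exceeded the array median on no array and read 3.86 to 8.36.

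Rab3d is found on secretory vesicles and has been tied to the ruffled border, the resorbing membrane of the osteoclast. Its brightest probe set read 435, 293 and 197 on the mutant and 538, 347 and 218 on the wild-type arrays. Each mutant value was below its partner of the same assay, with pair differences of -0.30, -0.23 and -0.13 on the log2 scale, while assay 3 was lowest in both groups. The mean log2 difference was -0.22 ± 0.42 SE (95% interval -1.27 to 0.83). With the assay number as a block the SE by limma was 0.08, with an unadjusted p of 0.0516 and an adjusted p of 0.859. The direction was not shared by the other 3 Rab3d probe sets, which differed by 0.10, 0.25 and 0.01. In the second brightest the pairs differed by -0.21, 0.24 and 0.27. By assay the brightest probe sets of Rab3d and Rab27a held 94.4% and 67.8% of their sum of squares.

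**Figure D3:**
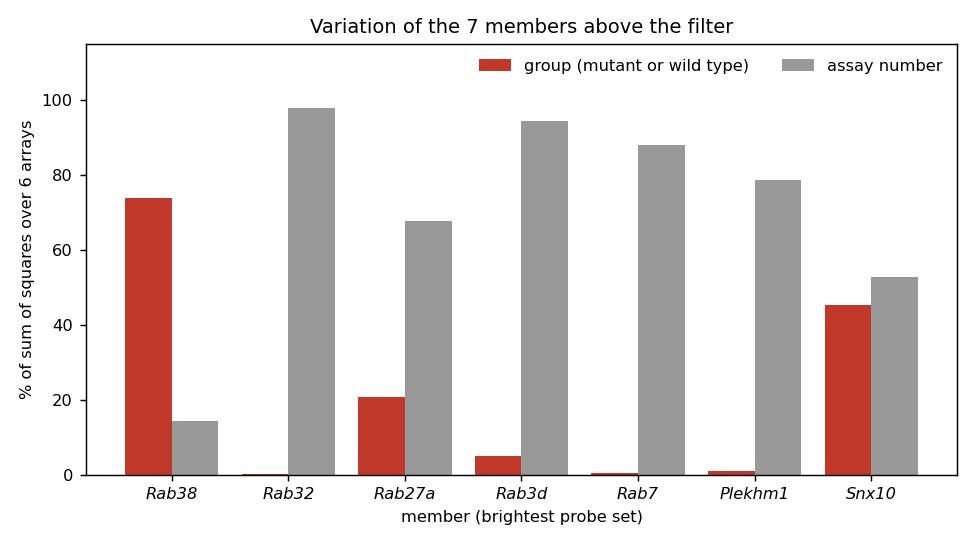
Share of each member's sum of squares over the 6 arrays, on the log2(intensity + 16) scale, that lay between the groups (red) and between the assays (grey), for the 7 members above the filter. Only for Rab38 is the group bar (73.8%) above the assay bar (14.3%), Snx10 has bars of similar height, and the other 5 are led by assay.

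Snx10 is needed for vesicle traffic and the resorbing membrane in osteoclasts. It read 1324, 1028 and 1367 on the mutant and 1873, 1268 and 1829 on the wild-type arrays. Each mutant array was lower than the wild-type array of its assay, but mutant arrays 1 and 3 were above wild-type array 2, so the groups overlapped. Means were 1239.7 ± 184 and 1656 ± 337 (SD, n = 3 each). The log2 difference was -0.40 ± 0.21 SE (95% interval -0.92 to 0.12), with an unadjusted p of 0.104 by limma. The pair differences were -0.50, -0.30 and -0.42. With the assay number as a block the unadjusted p by limma was 0.00864, with an adjusted p of 0.859. A dimmer Snx10 probe set, of a type that may also bind related transcripts, read 258, 202 and 521 on the mutant and 372, 247 and 512 on the wild-type arrays. Its pair differences were -0.50, -0.27 and 0.03, so it was level in assay 3.

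Promoter windows were taken from RefSeq (GRCm38.p6), from 250 bases before to 50 after each annotated start. Of the 8 members 6 were matched, with 10 windows; Rab38 and Syt7 were not. Searched on both strands were the E-box CACGTG, the M-box TCATGTG and its core CATGTG, which lies within it, the AP-1 site TGANTCA, the NFAT core GGAAA and TATAAA. AP-1 and NFAT are factors of the RANK pathway, and E-box and M-box letters are read by the MITF and TFEB family of lysosomal genes. Of the motifs of these factors, AP-1 and the E-box each occurred in 1 member window. Their stretches are shown, with the motif in capitals and 10 flanking bases where the window allows. The TATAAA match, also in 1 member window, is not shown.
Snx10, AP-1: cgccgcgcctTGAGTCAgcaaactccg
Rab27a, E-box: cttgCACGTGctcctccgtc
The Snx10 stretch is at chr6:51523976-51524002 on the plus strand, with the match starting 98 bases before the start of 1 of 3 annotated transcripts. The Rab27a stretch is at chr9:73063898-73063917 on the plus strand, 246 bases before the start of 1 of its 2 windows. Of all 32851 windows 7.81% held the AP-1 letters and 7.15% the E-box. GGAAA was in 6 of the 10 member windows and 61.3% of all, and TATAAA in 1 of 10 and 13.6%. The M-box and its core were in 0 of the 10 and in 3.77% and 14.2% of all windows. A match describes the letters in these windows and is not evidence of binding.

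Rab7 and Plekhm1 join late endosomes to lysosomes, Plekhm1 being an effector that links Rab7 to the fusion machinery. Rab7 read 5233, 6374 and 5224 on the mutant and 5771, 6201 and 5057 on the wild-type arrays. Its values overlapped fully, and the highest array was 1.26 times the lowest. The log2 difference was -0.02 ± 0.14 SE (95% interval -0.36 to 0.32). The other Rab7 probe set differed by -0.13 ± 0.13 SE, with pairs of -0.12, -0.29 and 0.01. Plekhm1 read 1364, 1882 and 1713 on the mutant and 1498, 1648 and 1676 on the wild-type arrays. It was lower in the mutant of assay 1 and higher in those of assays 2 and 3. The log2 difference was 0.03 ± 0.15 SE (95% interval -0.34 to 0.40), and -0.03 ± 0.09 SE on a dimmer probe set.

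Syt7, a calcium sensor of lysosome exocytosis that acts in osteoclast and osteoblast secretion, was not above background. Its 4 probe sets exceeded the array median on no array and read 4.74 to 6.68. The brightest read 6.60, 6.61 and 6.37 on the mutant and 6.68, 6.45 and 6.51 on the wild-type arrays. At such intensities a difference between the groups could not be measured.

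**Figure D4:**
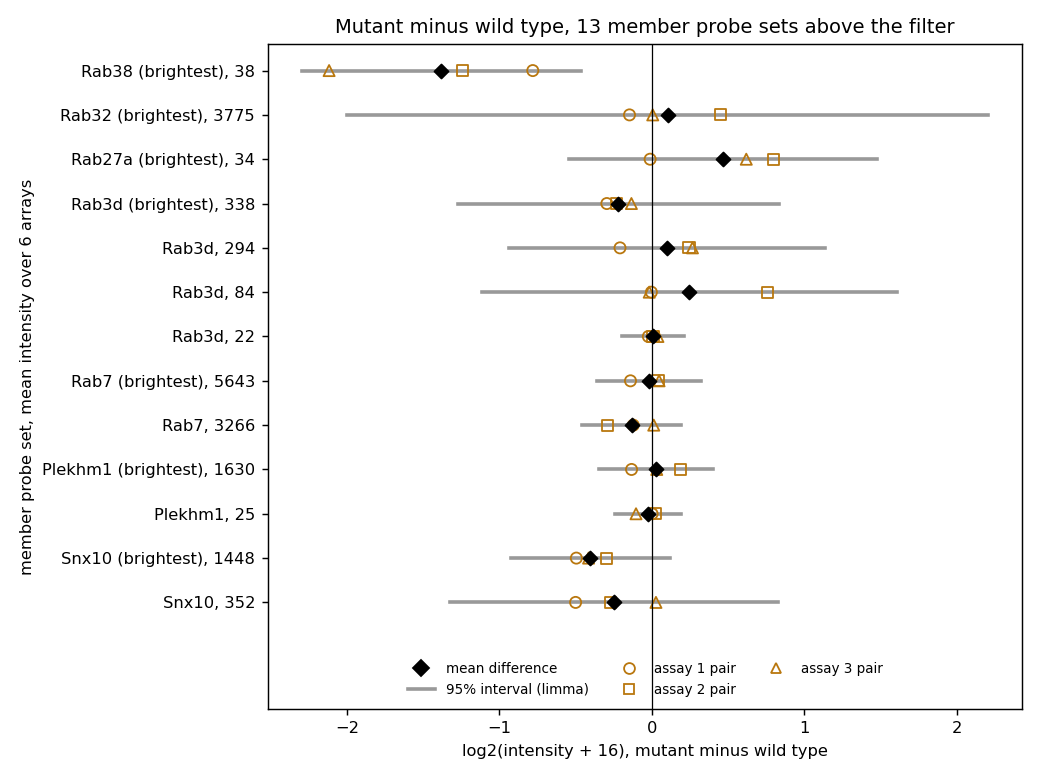
Mutant minus wild type on the log2(intensity + 16) scale for the 13 member probe sets above the filter, labelled with gene and mean intensity. Diamonds are mean differences, bars 95% intervals from limma without the assay term, and open symbols the 3 same-numbered pairs. The bar of the brightest Rab38 probe set (-2.29 to -0.47) is the only one that does not reach 0.

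The wider machinery was described with 6 lists of genes. No gene of these lists passed by limma over all probe sets, with or without the assay block. At an unadjusted p under 0.05 limma gave 1 of the other Rab GTPases, lower in the mutant. It gave 2 of the lysosomal cargo and pump genes, also lower, and 0 in the other 4 lists. Of all genes 0.935% were lower and 0.202% higher at that threshold, and 3.07% and 2.82% with the assay block. The SEs given for list genes come from the fit without the assay term, as does the p by which the genes were picked. For all genes the median log2 difference was 0.01.

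The partners of the Rab32 subfamily include the BLOC complexes, which build lysosome-related organelles, and the AP-3 coat. Of 24 tested, 8 were lower and 16 higher on the mean; log2 differences ranged from -0.15 to 0.42 around a median of 0.04. Lower in every pair were 3 and higher 2, where 12% of all genes were lower and 14.5% higher. Ap3s2, an AP-3 subunit, differed by 0.42 ± 0.30 SE, with pairs of 0.27, 0.55 and 0.43. Chm, which escorts Rabs to the enzyme that adds their lipid anchor, differed by 0.23 ± 0.13 SE, and Hps3 of BLOC-2 by 0.13 ± 0.12 SE. With the block, limma put 0 lower and 1 higher gene under an unadjusted p of 0.05.

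The effectors of Rab27 and Rab3 bring granules to the membrane. Of 32 with a probe set, 12 lay below the filter, among them the Rab27 effectors Sytl1, Sytl2, Myrip, Mlph and Exph5. The 20 tested split into 8 lower and 12 higher, with a median of 0.03. Rab3il1, an exchange factor linked to Rab3 and Rab8, read 2003, 2859 and 1829 on the mutant and 1595, 1812 and 1737 on the wild-type arrays, without overlap (0.35 ± 0.19 SE). Stx11, a fusion protein of granules, differed by -0.61 ± 0.42 SE with pairs of 0.29, -0.26 and -1.86. Rab3gap2 differed by 0.16 ± 0.14 SE. With the block, limma put 1 lower and 1 higher gene under an unadjusted p of 0.05.

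The list of Rab7 effectors, related genes and fusion genes, among them the HOPS tethering complex, had 32 tested, 18 lower and 14 higher. Its median was -0.02 and its range -0.44 to 0.24. Not every gene in it is a Rab7 effector. Vamp4, a fusion protein, read 2429, 2009 and 2357 on the mutant and 2581, 2597 and 2433 on the wild-type arrays, without overlap, a log2 difference of -0.17 ± 0.11 SE. Ccz1, part of the exchange factor of Rab7, differed by -0.14 ± 0.11 SE and Rilpl2 by -0.44 ± 0.39 SE, both lower in every pair. With the block, limma put 1 lower and 1 higher gene under an unadjusted p of 0.05.

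Sorting nexins, retromer and phosphoinositide kinase genes had 35 tested, 10 lower and 25 higher, with a median of 0.04. Snx20 read 176, 209.8 and 237 on the mutant and 225, 252 and 347 on the wild-type arrays, lower in every pair (-0.37 ± 0.20 SE). Snx7 differed by -0.33 ± 0.18 SE with pairs of 0.08, -0.29 and -0.79, and Snx21 by -0.15 ± 0.13 SE. Snx10 itself, at -0.40, lay below the lowest of these 35, at -0.37. With the block, limma put 1 lower and 2 higher genes under an unadjusted p of 0.05.

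The other Rab GTPases had 35 tested, 16 lower and 19 higher, with a median of 0.01. Rab20, a GTPase of phagosomes and mitochondria, read 262, 189 and 247 on the mutant and 327, 351 and 330 on the wild-type arrays. No mutant value reached a wild-type value, and the log2 difference was -0.51 ± 0.14 SE, with an unadjusted p of 0.0143 and an adjusted p of 0.99998 by limma. Rab22a, an endosomal GTPase, read 462, 471 and 460 against 538, 574 and 502, also without overlap (-0.20 ± 0.09 SE). In this list 2 genes were lower and 1 higher without overlap, where 1.96% of all genes were lower and 1.36% higher. Rab23 was at 63.7 ± 10.1 against 47.0 ± 14.5 (SD, n = 3 each), and differed by 0.36 ± 0.22 SE on the log2 scale. With the block, limma put 1 lower and 0 higher genes under an unadjusted p of 0.05.

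The lysosomal cargo and proton pump genes had 20 tested, 16 lower and 4 higher, with a median of -0.06, where 46.8% of all genes were lower. In every pair 7 were lower and 0 higher, where 12% of all genes were lower and 14.5% higher. Acp5 and Ctsk, the phosphatase and the protease that osteoclasts secrete, differed by -3.54 ± 0.59 SE and -3.82 ± 0.81 SE, without overlap. Atp6v1b2, a pump subunit, read 3545, 3998 and 4844 against 4547, 4782 and 5817, lower in every pair but with overlapping groups (-0.29 ± 0.17 SE). With the block, limma put 3 lower and 0 higher genes under an unadjusted p of 0.05, against 3.07% and 2.82% of all genes. The 3 were Acp5, Ctsk and Atp6v1b2. Acp5, Ctsk and Atp6v0d2 also stand among the osteoclast markers, and the pattern of Acp5 and Ctsk was known when the lists were made.

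**Figure D5:**
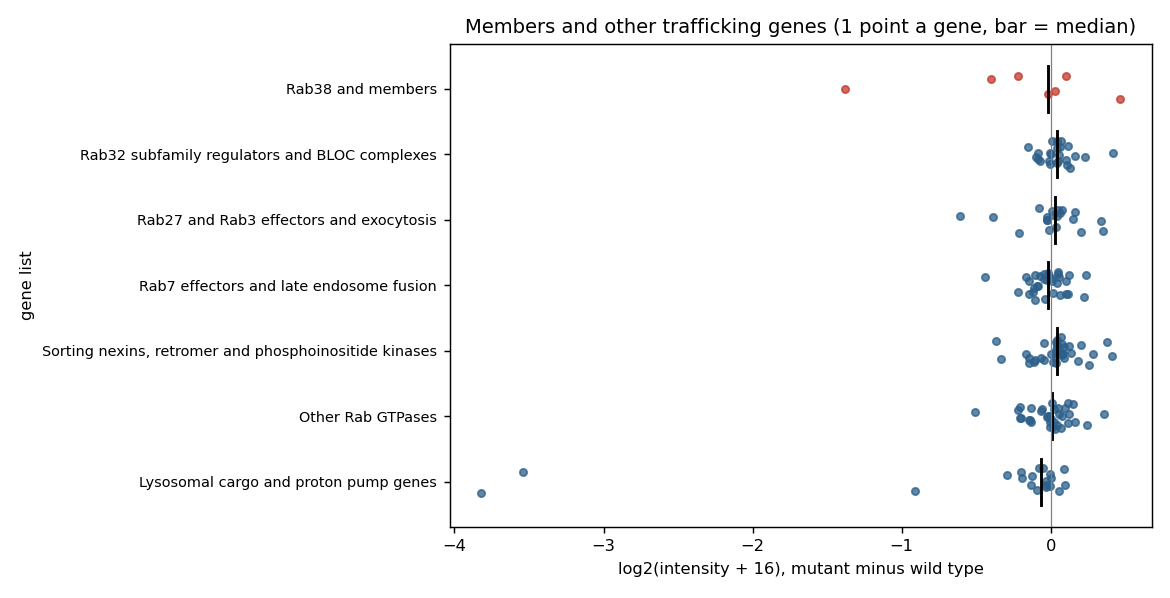
Log2 differences, mutant minus wild type, of the 7 members above the filter (red) and of the tested genes of the 6 lists (blue), 1 point a gene, with a bar at each median; vertical scatter within a row has no meaning. Medians lie between -0.06 and 0.04, and the points farthest to the left are Rab38 at -1.38 among the members and Acp5 and Ctsk at -3.54 and -3.82 among the cargo genes.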

How the data were processed

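The members and gene lists were chosen with earlier results of these data known. The deposited values were intensities on a linear scale, 1 per probe set and array. Per the submitters' processing notes the authors used GCOS and GCRMA, without versions; GCRMA equalizes the arrays' distributions and pulls dim signals to a common low level. The 75th percentiles were 160 to 164, so the arrays were not normalized again. After leaving out 64 control probe sets of 45101, intensities were transformed to log2(value + 16), which understates the change of dim genes, and probe sets above the array median (percentile 50) on at least 3 arrays were kept. Differences were tested, two-sided, with limma 3.58.1 (lmFit, eBayes) in R 4.3.3 without a block. Gene symbols came from the platform annotation. Groups and assay numbers came from the sample titles. Deviations of same-numbered arrays from their group means correlated at 0.797, 0.671 and 0.845 and those of other pairs at -0.618 to -0.0138, so the numbers pair the arrays. The named genes were all members, up to 3 genes of each list with the smallest p, and the 5 genes most like Rab38. Simulated data with known changes were used to check the limma steps.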

Additional observations from a re-analysis of the deposited data

How the results depend on the processing

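The 7 tested members were recomputed under 20 alternatives, which changed the pseudocount, filter, normalization, probe set rule, variance model or block, or left out arrays. None passed by limma in any of the 138 values, with adjusted p from 0.859 to 1, and Rab38, Rab27a and Snx10 kept their direction wherever they were tested. Rab38 ranged from -1.70 to -0.997 when arrays were left out. The direction turned for Rab32 (-0.44 to 0.77 over left-out arrays, -0.071 without assay 2), Rab3d (-0.53 to 0.088), Rab7 (-0.11 to 0.048, and 0.043 without assay 1) and Plekhm1 (-0.070 to 0.16, and -0.051 without assay 2), and for Rab3d at 0.033 with the mean of its probe sets. The count of members without overlap was 0 with the filter at the 70th percentile, which removes Rab38 and Rab27a, and 1 to 2 over left-out arrays. It was 2 without wild-type array 2 or without both arrays of assay 2, as Snx10 was added. Of all tested probe sets 3.95% and 6.65% were then lower without overlap, against 1.59% with all arrays. With the replicate number as a fixed replicate block limma called 0 probe sets, and with it as a random block 1, which is no member; the block changed no other call. Rab38 was -1.38 with the replicate block, adjusted p = 0.859 by limma. The floor of dim probe sets limits Rab38, Rab27a and Syt7.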
